A study of Homo sapiens with 9 samples.

Results

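The miR-224 and miR-452 locus consists of a pair of microRNA (miRNA) hairpins, MIR224 and MIR452, that lie in an intron of GABRE on the X chromosome. Members were the rows of the count table whose miRNA name equalled 1 of the 4 mature products of these hairpins, and 3 of the 4 names were found among the 1198 mature miRNAs listed. These are hsa-miR-224-5p, hsa-miR-224-3p and hsa-miR-452-5p, while hsa-miR-452-3p was not analysed here. The rule that picks these rows uses no measured value, but the locus was chosen with earlier results of these data known. From this sequencing the study lists miR-224-5p and miR-452-5p as down in the subline resistant to 5-fluorouracil. The p-values below are therefore not those of a locus chosen blind.

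Small RNA libraries were made from 3 lines, with 3 biological replicates of each and 9 libraries in all. HCT116, an established human colorectal carcinoma cell line, was the untreated parent, and its libraries are labelled HCT-116. HCT-FU-c, labelled HCT_FU, is a subline of HCT116 selected under a permanent and rising concentration of 5-fluorouracil, a pyrimidine analogue that inhibits thymidylate synthase. HCT-Oxa-c, labelled HCT_Oxa, was selected in the same way under oxaliplatin, a platinum compound that crosslinks DNA. All 3 lines share the genetic background of HCT116, and the labels give RPMI 1640 with fetal bovine serum as their medium, whereas the methods of the study name DMEM. For either drug there is a single subline, and its replicates are cultures of that 1 selection, so p-values measure the spread between such cultures and not between independent selections.

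A miRNA hairpin is cut out of a longer transcript by Drosha and then trimmed by Dicer to a duplex, of which usually 1 strand is loaded into an Argonaute protein while the other is degraded. The loaded strand finds its target mRNAs mainly through its seed near the 5′ end. GABRE, the host gene, encodes the epsilon subunit of the GABA type A receptor, and a miRNA inside an intron can be transcribed together with its host.

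The mature sequences are shown because the seed, bases 2 to 8, sets which mRNAs a miRNA can pair with. The sequences were taken from RefSeq on GRCh38.p14, and capitals mark the seed.
hsa-miR-224-5p: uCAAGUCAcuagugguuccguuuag
hsa-miR-224-3p: aAAAUGGUgcccuagugacuaca
hsa-miR-452-5p: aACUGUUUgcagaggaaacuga
hsa-miR-452-3p: cUCAUCUGcaaagaaguaagug
The 4 seeds differ from each other. All 4 are read from the minus strand of the X chromosome, miR-224-5p at chrX:151958628-151958652, miR-224-3p at chrX:151958584-151958606, miR-452-5p at chrX:151959678-151959699 and miR-452-3p at chrX:151959634-151959655. The hairpins are shown to place both arms within them, and here capitals mark the mature sequences, with the -5p arm first.
MIR224: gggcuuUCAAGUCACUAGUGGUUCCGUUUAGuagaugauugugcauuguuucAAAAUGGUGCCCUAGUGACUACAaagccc
MIR452: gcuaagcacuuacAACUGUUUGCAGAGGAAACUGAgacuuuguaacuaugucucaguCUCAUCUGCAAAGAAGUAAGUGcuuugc

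In the GENCODE 29 annotation of GRCh38, GABRE spans chrX:151953124-151974680 on the minus strand. The MIR452 hairpin, 85 bases at chrX:151959628-151959712, and the MIR224 hairpin, 81 bases at chrX:151958578-151958658, both lie in intron 6 of the transcript GABRE-201. That intron is 3978 bases long, and 969 bases separate the hairpins. Transcription of GABRE reaches MIR452 first, 14967 bases after the start of GABRE-201, and MIR224 at 16021 bases. Other GABRE transcripts place them differently, since MIR224 lies in intron 7 and MIR452 in intron 6 of GABRE-203, exon 1 of GABRE-209 holds both hairpins, and exon 3 of the retained-intron transcript GABRE-207 overlaps part of MIR224. The libraries hold no reads of GABRE itself, so the host transcript was not measured by this sequencing. The study measured GABRE mRNA separately by quantitative PCR. It reports a direct correlation between the miRNAs of the locus and changes of this mRNA in HCT-FU-c and in a further resistant subline. Those PCR values were not analysed here.

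The libraries held 856383 to 2207538 counts each, and replicate 3 was the shallowest in every line. miR-21-5p alone took 40.0% to 57.1% of the counts. All 6 colorectal epithelial marker miRNAs had reads in every library, miR-215-5p as few as 1. Their summed levels, in CPM (counts per 1000000 counts of the library), were 16805 to 22715 for HCT116, 17513 to 20769 for HCT-FU-c and 18219 to 22347 for HCT-Oxa-c. These sums were mostly miR-200c-3p (9124 to 11370 CPM) and miR-200b-3p (7228 to 10578 CPM). The rest of the list was lower, with miR-141-3p at 329 to 1102 CPM and miR-194-5p at 48.3 to 202 CPM. miR-192-5p was at 34.6 to 70.3 CPM and miR-215-5p at 1.05 to 18.5 CPM. Of 11 markers of other cell types 10 had a row. Their sums were 4434 to 4848, 3591 to 4670 and 3758 to 4173 CPM for HCT116, HCT-FU-c and HCT-Oxa-c. Most of that sum came from the nerve cell marker miR-9-5p (2465 to 3554 CPM) and the endothelial marker miR-126-3p (432 to 981 CPM). The liver marker miR-122-5p and the blood markers miR-142-3p, miR-223-3p and miR-451a had 0 reads in at least 1 library. So had miR-1-3p of muscle and miR-124-3p of nerve cells. In that order, the highest levels of these markers were 60.1, 3.78, 13.3, 253, 8.02 and 1.51 CPM. In replicate 3, miR-122-5p was at 60.1, 23.8 and 46.2 CPM in HCT116, HCT-FU-c and HCT-Oxa-c. In replicates 1 and 2 it was at most 3.67 CPM. The stromal markers miR-145-5p (64.4 to 168 CPM) and miR-143-3p (60.5 to 561 CPM) had reads in every library. The highest levels of miR-451a and miR-223-3p came from HCT-Oxa-c replicate 3. Those of miR-1-3p and miR-143-3p came from HCT116 replicate 3, and that of miR-9-5p from HCT-FU-c replicate 3. For miR-142-3p, miR-124-3p, miR-126-3p and miR-145-5p the highest level was in a library of replicate 1 or 2. With the replicate block miR-143-3p fell by 0.96 on the log2 scale in HCT-FU-c against HCT116 (edgeR adjusted p = 0.0113). In HCT-Oxa-c against HCT116 it fell by 0.97 (edgeR adjusted p = 0.00172). With the block 3.81% and 5.18% of all 367 tested miRNAs were called lower in these comparisons. Without it edgeR called 0 of the 367 in HCT-FU-c against HCT116. The part of these markers in the results was not tested. Libraries of replicate 3 stood apart from those of replicates 1 and 2 in all 3 lines, their deviations from the line means being correlated across miRNAs at 0.74 to 0.76 with each other and at -0.68 to -0.50 with those of the other numbers. For this reason the values of single libraries and those of replicates 1 and 2 alone are given with the results below.

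miR-224-5p was the most abundant product of the locus and held most of its reads, while its level was lowest in HCT-FU-c. It was read 290, 225 and 121 times in HCT116 replicates 1, 2 and 3. The HCT-FU-c libraries had 108, 122 and 77 reads of it and the HCT-Oxa-c libraries 395, 358 and 237. After scaling by TMM (trimmed mean of M-values), HCT116 was at 197, 161 and 162 CPM, HCT-FU-c at 81.7, 64.1 and 91.8 CPM, and HCT-Oxa-c at 207, 160.2 and 243 CPM. The 3 HCT-FU-c libraries lie below all 6 other libraries, whereas the HCT116 and HCT-Oxa-c libraries overlap. The mean level was 173 ± 20.6 CPM for HCT116, 79.2 ± 14.0 CPM for HCT-FU-c and 204 ± 41.7 CPM for HCT-Oxa-c (SD, n = 3 each). Among the 367 miRNAs with enough reads to be tested, miR-224-5p ranked 114 by mean level in the parent, 154 in HCT-FU-c and 104 in the oxaliplatin subline. In bulk RNA, fewer cells that make a miRNA and less of it per cell cannot be told apart.

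The opposite arm, miR-224-3p, had 3 reads or fewer in every library. HCT116 gave 2, 0 and 3 reads of it, HCT-FU-c 1, 0 and 0, and HCT-Oxa-c 0, 3 and 0. A count of 0 allows up to 3 counts, which is 1.34 to 4.01 CPM depending on the library, and no library exceeded 3 reads. It did not pass the filter on low counts, and no difference between the lines was detectable at this depth. Over all libraries the -5p arm held 1933 of 1942 miR-224 reads, 99.5% (95% Wilson interval 99.1 to 99.8). The lowest share of a single library was 97.6% (93.1 to 99.2), in HCT116 replicate 3. These intervals and the limit for a count of 0 cover counting error only, since amplified reads are not independent molecules.

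miR-452-5p, from the hairpin that is transcribed first, was read less often than miR-224-5p in every library. HCT116 gave 60, 52 and 19 reads of it, HCT-FU-c 15, 26 and 20, and HCT-Oxa-c 49, 78 and 22. As levels, HCT116 was at 40.8, 37.2 and 25.4 CPM, HCT-FU-c at 11.3, 13.7 and 23.8 CPM, and HCT-Oxa-c at 25.7, 34.9 and 22.6 CPM. The 3 HCT-FU-c libraries again lie below the 3 of HCT116, but in replicate 3 the levels of 23.8 and 25.4 CPM nearly meet. HCT-Oxa-c overlaps both other lines. The means were 34.4 ± 8.03, 16.3 ± 6.65 and 27.7 ± 6.40 CPM (SD, n = 3 each), placing miR-452-5p at rank 204, 259 and 225 of the 367 tested miRNAs. Its coefficient of variation was 40.8% in HCT-FU-c, against 17.7% for miR-224-5p in the same libraries.

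**Figure D1:**
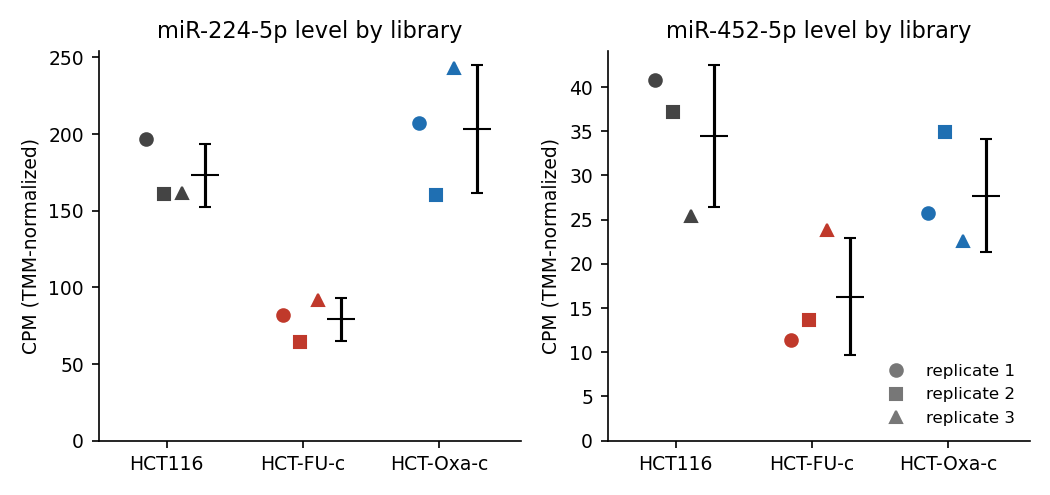
Levels in CPM of miR-224-5p (first panel) and miR-452-5p (second panel), in each of the 9 libraries, symbols marking single libraries by replicate number and the black bars beside them giving the mean ± SD of each line (n = 3). For miR-224-5p the HCT-FU-c libraries, 64.1 to 91.8 CPM, lie below all others, while for miR-452-5p the HCT-FU-c library of replicate 3 reaches 23.8 CPM.

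The direct contrast of the drug-selected sublines asked whether selection under the different drugs left the locus at different levels. The HCT-Oxa-c level of miR-224-5p exceeded that of HCT-FU-c by 1.36 on the log2 scale (SE 0.26, 95% interval 0.78 to 1.95), a ratio of means of 2.57. In edgeR's quasi-likelihood test its Benjamini-Hochberg adjusted p was 0.0201, the ninth lowest p of the 367 miRNAs. In this contrast 16 of 367 miRNAs, 4.36%, were called at an adjusted p under 0.05, 13 of them (3.54%) higher in HCT-Oxa-c and 3 (0.817%) lower. The difference was 1.34, 1.32 and 1.41 between libraries of replicates 1, 2 and 3, and the lines did not overlap, as for 45 of the 367 miRNAs (12.3%) in that direction. With replicates 1 and 2 alone it was 1.41 (edgeR adjusted p = 0.000844), in a fit that called 67 of 380 miRNAs. Without the block the edgeR call was lost when HCT-FU-c replicate 1 (adjusted p = 0.0836), HCT-FU-c replicate 2 (0.139), HCT-Oxa-c replicate 1 (0.0577) or HCT-Oxa-c replicate 3 (0.0524) was left out.

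For miR-452-5p the same contrast gave 0.80 on the log2 scale (SE 0.37, 95% interval -0.04 to 1.63), with an edgeR adjusted p of 0.326, so it was not called. With the replicate block it was not called either (edgeR adjusted p = 0.0939), where 97 of 367 miRNAs (26.4%) were. Between libraries of the same number the difference was 1.18 and 1.35 in replicates 1 and 2, and -0.08 in replicate 3. Without the libraries of replicate 3 it was 1.34 (edgeR adjusted p = 0.0180). That fit called 67 of 380 miRNAs, against 16 of 367 with all libraries. The call of miR-452-5p thus depended on the libraries of replicate 3.

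Setting HCT-FU-c against its parent asked whether the locus differed in the subline selected under 5-fluorouracil. miR-224-5p was lower in HCT-FU-c by a log2 difference of -1.13 (SE 0.26, 95% interval -1.72 to -0.55), a ratio of means of 0.457. It had the second lowest p of all 367 tested miRNAs, 0.00170 in edgeR, and an adjusted p of 0.312. Without a replicate block edgeR called 0 of the 367 miRNAs (0.0%) in this comparison, 15 (4.09%) had an unadjusted p under 0.05, and DESeq2 called 4, miR-224-5p among them. With the replicate number as a block, miR-224-5p fell by 1.15 on the log2 scale (SE 0.20, edgeR adjusted p = 0.000809), and 20 miRNAs (5.45%) were called, 14 of them (3.81%) lower. Within replicates 1, 2 and 3 the log2 difference was -1.27, -1.33 and -0.82, so it was lower in 3 of 3 same-numbered pairs. All HCT-FU-c libraries lay below all HCT116 libraries for 16 of the 367 miRNAs (4.36%), both miR-224-5p and miR-452-5p among them. With replicates 1 and 2 alone the difference of miR-224-5p was -1.35 (edgeR adjusted p = 0.00761), in a fit that called 13 of 380 miRNAs.

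miR-452-5p differed between HCT-FU-c and HCT116 by -1.11 on the log2 scale (SE 0.37, 95% interval -1.95 to -0.27), close in size to miR-224-5p but with a wider interval. It was not called in edgeR, neither without the block (adjusted p = 0.708) nor with it (-1.17, SE 0.37, adjusted p = 0.0724). The difference was -1.85 and -1.44 in replicates 1 and 2 and -0.09 in replicate 3. Without replicate 3 it was -1.67 (edgeR adjusted p = 0.0204), in a fit that called 13 of 380 miRNAs. Of the 367 tested miRNAs 11 had a lower log2 fold change than miR-224-5p in this comparison, and 12 a lower one than miR-452-5p.

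In HCT-Oxa-c neither product was called against HCT116. The log2 difference of miR-224-5p was 0.23 (SE 0.25, 95% interval -0.34 to 0.80, edgeR adjusted p = 0.938), with 0.07, -0.01 and 0.59 in replicates 1, 2 and 3. As a ratio the interval runs from 0.790 to 1.74. For miR-452-5p the log2 difference was -0.31 (SE 0.36, 95% interval -1.13 to 0.50, edgeR adjusted p = 0.953), and it was below 0 in 3 of 3 same-numbered pairs. With replicates 1 and 2 alone the values were 0.05 for miR-224-5p and -0.33 for miR-452-5p. The intervals leave room for changes of either sign, and the lines overlapped for both miRNAs. In this comparison edgeR called 9 of 367 miRNAs, 2.45%, of which 5 (1.36%) were higher and 4 (1.09%) lower. With the replicate block it called 54 (14.7%), 35 higher (9.54%) and 19 lower (5.18%). The HCT116 libraries entered both comparisons with the sublines, so these do not bear on each other independently.

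**Figure D2:**
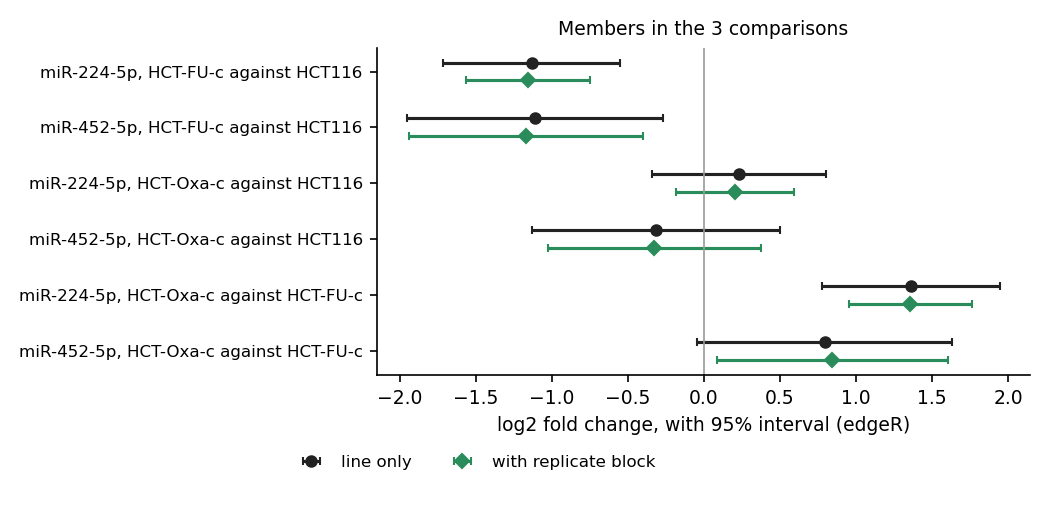
Log2 fold changes of both guide strands, miR-224-5p and miR-452-5p, for the 3 comparisons from edgeR without and with the replicate block, points giving the estimate and bars its 95% interval. The miR-224-5p intervals for HCT-FU-c against HCT116 (-1.72 to -0.55 without the block) and for HCT-Oxa-c against HCT-FU-c (0.78 to 1.95) do not reach 0, and those for HCT-Oxa-c against HCT116 do. For miR-452-5p the interval between the sublines reaches 0 without the block (-0.04 to 1.63) and not with it (0.08 to 1.61). With the block its edgeR adjusted p was 0.0939, so it was not called.

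The ratio of both guide strands within a library does not depend on how libraries are scaled. miR-224-5p had 4.83, 4.33 and 6.37 reads for each read of miR-452-5p in the HCT116 libraries. This ratio was 7.20, 4.69 and 3.85 for HCT-FU-c and 8.06, 4.59 and 10.8 for HCT-Oxa-c. The ranges overlap between all lines. The mean log2 ratio, with 0.5 added to each count, was 2.31 ± 0.45 in HCT-FU-c, 2.86 ± 0.62 in HCT-Oxa-c and 2.34 ± 0.28 in HCT116 (SD, n = 3 each). It differed by -0.02 between HCT-FU-c and HCT116 (exact two-sided permutation test, p = 0.9), by 0.53 between HCT-Oxa-c and HCT116 (exact p = 0.3) and by 0.55 between the sublines (exact p = 0.3). In same-numbered pairs the ratio was higher in HCT-Oxa-c than in the parent in 3 of 3, with an exact paired sign-flip p of 0.25, the smallest that 3 pairs can give, while the paired p was 1 for HCT-FU-c against the parent and 0.5 between the sublines. With 3 libraries against 3 the smallest p the unpaired test can give is 0.1, so this design cannot reach 0.05, and the 15 to 78 miR-452-5p reads of each library limit the precision of each ratio. Ligation and amplification favour some small RNA sequences over others, so the ratio of reads is not a ratio of molecules.

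**Figure D3:**
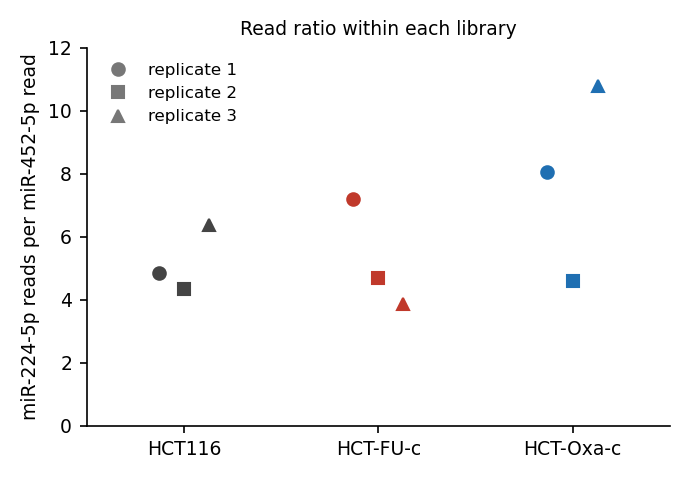
Ratio of miR-224-5p to miR-452-5p reads in each of the 9 libraries on a linear axis that starts at 0, with symbols marking the replicate number and colours the line. The lines overlap, with 3.85 to 7.20 in HCT-FU-c, 4.33 to 6.37 in HCT116 and 4.59 to 10.8 in HCT-Oxa-c.

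Other miRNAs that share a seed with a member could pair with the same mRNA sites. In the RefSeq table used here, which is not complete, such mates were found for miR-452-5p, and of these hsa-miR-4676-3p, from MIR4676 at chr10:72721072-72721093 on the plus strand, had a row. It is shown, with the seed in capitals, because it matches miR-452-5p at bases 2 to 8.
hsa-miR-4676-3p: cACUGUUUcaccacuggcucuu
HCT116 gave 1, 2 and 2 reads of it, HCT-FU-c 0, 3 and 1, and HCT-Oxa-c 1, 0 and 0. At these counts, all at or under 3, no fold was computed, whereas miR-452-5p had 15 to 78 reads per library.

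The other miRNAs of the X chromosome give a view of the chromosome around the locus. By RefSeq positions 75 other listed miRNAs have all their hairpins there, and 33 of them were tested. Between HCT-FU-c and HCT116 their median log2 fold change was 0.09, with a range of -0.86 to 1.22, against a median of 0.02 over all 367 tested miRNAs. In that comparison 20 lay above 0 and 13 below, and none was called with or without the block, where 5.45% and 0.0% of all 367 were called. None was as low as miR-224-5p or miR-452-5p, but over all 367 the numbers below them, 11 and 12, were small as well. The lowest p in this list belonged to miR-421, at -0.64 (77.4 ± 7.49 CPM in HCT-FU-c and 121 ± 29.6 CPM in HCT116, edgeR adjusted p = 0.913), and miR-374b-3p, at -0.86 (27.6 ± 6.21 and 50.2 ± 19.9 CPM, edgeR adjusted p = 0.913). Both come from the FTX transcript beside XIST.

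Between HCT-Oxa-c and HCT116 the median of the 33 miRNAs was 0.00 on the log2 scale (-0.97 to 0.64; -0.01 over all tested), and none was called with or without the block, where 14.7% and 2.45% of all 367 were called. The lowest p belonged to miR-362-5p (-0.53, edgeR adjusted p = 0.520) and miR-501-5p (-0.68, edgeR adjusted p = 0.677), both from the miRNA cluster in CLCN5. Between the sublines their median was -0.11 (-1.93 to 0.96; -0.07 over all tested), with none called without the block and, with it, 3 higher (14.7% of all tested were called higher) and 3 lower (11.7%). In that contrast all 33 had a log2 fold change below that of miR-224-5p and 31 one below that of miR-452-5p. Of all 367 tested miRNAs, 337 and 311 likewise lay below them. miR-362-5p was at -0.88 (edgeR adjusted p = 0.0955, and 0.00403 with the block) and miR-421 at 0.73 (edgeR adjusted p = 0.174, and 0.0145 with the block).

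**Figure D4:**
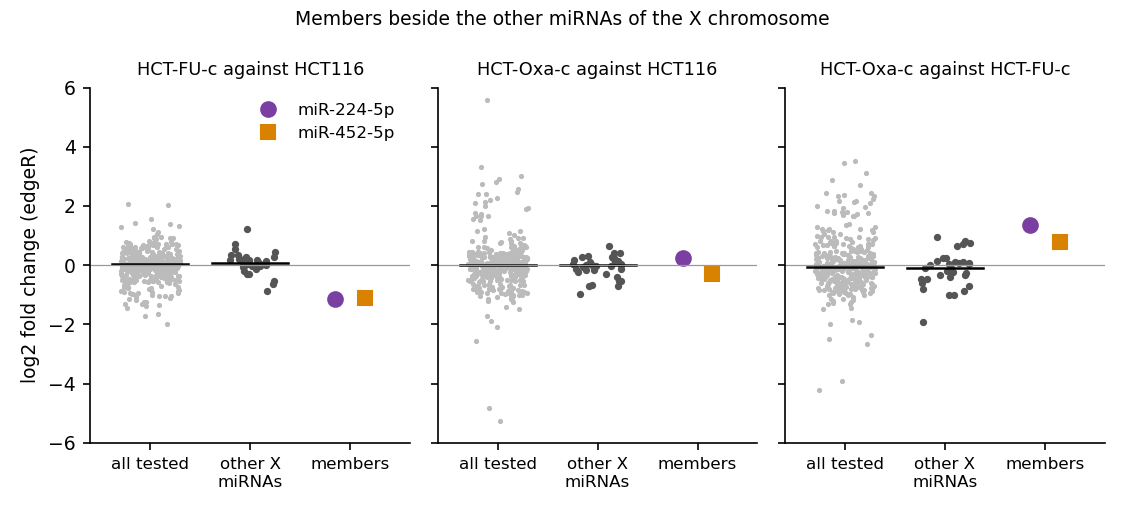
Log2 fold changes from edgeR in the 3 comparisons for all 367 tested miRNAs, the 33 other tested miRNAs of the X chromosome, miR-224-5p and miR-452-5p, horizontal bars giving the medians. In HCT-FU-c against HCT116 both locus products lie below all 33, and in HCT-Oxa-c against HCT-FU-c miR-224-5p lies above all 33. Of all 367, 11 lie below miR-224-5p and 12 below miR-452-5p in the former, and 337 lie below miR-224-5p in the latter.

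A second intron of a GABA receptor gene on the same chromosome holds miRNA hairpins, MIR105-1, MIR767 and MIR105-2 in intron 1 of GABRA3, which encodes the alpha-3 subunit. miR-105-5p had 1 read in all, in HCT-FU-c replicate 3. miR-767-5p had 2 reads, 1 in HCT-FU-c replicate 2 and 1 in HCT-Oxa-c replicate 1, and miR-105-3p and miR-767-3p were not analysed here. At this depth these miRNAs were not detectable above the limit that a count of 0 allows, whereas miR-224-5p had at least 77 reads in every library.

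The study's introduction names other miRNAs tied to the response to 5-fluorouracil, among them let-7, miR-203 (taken here as the miR-203a and miR-203b products) and miR-218, as well as miR-27a and miR-27b, which target dihydropyrimidine dehydrogenase, the enzyme that degrades the drug. Of 42 such miRNAs with a row, 35 were tested. Between HCT-FU-c and HCT116 their median log2 fold change was 0.04, and edgeR without the block called none of them and 0.0% of all tested miRNAs. With the block 1 was called higher and 4 lower, where 1.63% and 3.81% of all 367 were called. The lowest p belonged to miR-27a-5p (-0.91, adjusted p = 0.616, and 0.0173 with the block) and miR-218-5p (-0.99, adjusted p = 0.705, and 0.0230 with the block). There 1 of the 35 had a lower log2 fold change than miR-224-5p, against 11 of all 367. For miR-27a the study's discussion names miR-27a-3p as the strand that lowers dihydropyrimidine dehydrogenase. The study describes miR-27a-5p as a passenger strand.

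In HCT-Oxa-c against HCT116 the median of these 35 was 0.04, with 1 called higher and 0 lower by edgeR, beside 1.36% and 1.09% of all 367. With the block 8 were called higher and 4 lower, beside 9.54% and 5.18%. miR-27b-3p rose by 2.11 on the log2 scale (adjusted p = 0.00193), and miR-27b-5p, from the same hairpin, was at 2.91 (adjusted p = 0.0857, and 1.02e-09 with the block). In HCT-Oxa-c against HCT-FU-c the median was 0.00, with 4 called higher and 0 lower, beside 3.54% and 0.817% of all 367. With the block 8 were called higher and 7 lower, beside 14.7% and 11.7%. miR-27b-3p (1.84, edgeR adjusted p = 0.00443) and miR-218-5p (1.80, edgeR adjusted p = 0.0114) were higher in HCT-Oxa-c together with miR-224-5p.

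The profiles most like those of the locus over the 9 libraries belonged to miRNAs of other chromosomes. By Pearson's r of log2 CPM among 366 other tested miRNAs, miR-203a-3p (0.88), miR-1180-3p (0.86) and miR-200a-5p (0.83) were closest to miR-224-5p, and miR-452-5p ranked 19 (0.71). For miR-452-5p the closest were miR-1180-3p (0.94), miR-27a-5p (0.80) and miR-21-5p (0.77), and miR-224-5p ranked 4 (0.71). The 9 points share 3 lines, the replicate numbers and the scaling of each library, so these values are descriptions. miR-1180-3p, which headed 1 list and was second in the other, was at 134 ± 22.7 CPM for HCT116, 75.1 ± 24.4 CPM for HCT-FU-c and 142 ± 13.1 CPM for HCT-Oxa-c. miR-203a-3p, a miRNA of epithelial differentiation, followed the same order, with 2196 ± 337, 1516 ± 417 and 3697 ± 636 CPM (SD, n = 3 each).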

How the data were processed

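Small RNA was sequenced from HCT116, HCT-FU-c and HCT-Oxa-c, with lines and replicate numbers taken from the sample titles and 0 columns left unmapped. The authors deposited a table of raw counts for mature miRNAs together with a normalized signal, the count divided by 1 size factor per library, used here only for those size factors. The submitters' processing notes name CASAVA 1.8, Bowtie 1.1.2, DESeq2 and GRCh38.p7 without roles. The counting tool and the treatment of mismatches are not given in the sources used here. The libraries were made with ligated adapters and amplified by PCR, and which of them shared a sequencing run is not given, so run and line cannot be told apart.

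Counts were tested in edgeR 4.0.16 (R 4.3.3) by quasi-likelihood F tests over all 9 libraries with the line as factor, TMM factors, a prior count of 0.125 and Benjamini-Hochberg adjustment over all 367 miRNAs kept by filterByExpr (minimum count 10, minimum total 15). The 367 hold at least 99.9% of the counts of each library. The biological coefficient of variation was 0.458, and 0.174 with a replicate block. The test was checked on simulated counts without a replicate effect, in which 200 of 367 miRNAs were changed 4-fold. Without the block it recovered 197 of them, with 4 false calls. The check does not cover smaller changes or the replicate differences of these data. The simulated counts also varied less than the data did in the fit without the block, so the recovery does not carry over to that fit. Ratios were tested by exact permutation (scipy 1.17.1).

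The pairing comes from the replicate numbers in the titles. Deviations from line means correlated at 0.41 to 0.76 between libraries of the same number and at -0.68 to 0.61 between others, replicate 3 being separated but not replicate 1 from 2. Every same-number value exceeded 0.1, and libraries of the same number were treated as pairs in the replicate block and the same-numbered comparisons. The main edgeR fit used the line only. Libraries of replicates 1 and 2 correlated about as highly across numbers as within them, so these values do not show pairing by number.

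Named were all members with a row, seed mates with a count, the miRNAs of the GABRA3 intron, the 2 miRNAs of lowest p per list and comparison, and the 3 most similar profiles for either tested member (prior count 2). The members and lists were chosen with earlier results of these data known. Alternatives were RLE, total-count and the authors' size factors, TMM without miR-21-5p, DESeq2 1.42.0, other filters, the replicate block, replicates 1 and 2 only and each library left out. Sequences and chromosomes came from RefSeq GRCh38.p14, which gave 346 of the 367 tested miRNAs a chromosome.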

Additional observations from a re-analysis of the deposited data

Results flagged for a closer look

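The change of miR-224-5p against HCT116 differed between the sublines, by 1.36 on the log2 scale (HCT-Oxa-c minus HCT-FU-c). Because both changes use the same HCT116 libraries, this equals the direct contrast of the sublines, which was tested in edgeR with an adjusted p of 0.0201. The difference had the same sign in 3 of 3 same-numbered pairs.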

How the results depend on the processing

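Over 20 alternatives per comparison, miR-224-5p and miR-452-5p kept their direction in every comparison. For miR-224-5p in HCT-FU-c against HCT116 the adjusted p fell below 0.05 with the replicate block (-1.15), DESeq2 (-1.20), DESeq2 with the replicate block (-1.21) and replicates 1 and 2 only (-1.35). For miR-452-5p it did so with DESeq2 and the replicate block (-1.21) and with replicates 1 and 2 only (-1.67), and between the sublines with replicates 1 and 2 only (1.34). The replicate block changed no other call of a member. In the order HCT-FU-c against the parent, HCT-Oxa-c against the parent and last the direct contrast of the sublines, miRNAs called numbered 0, 9 and 16, then 20, 54 and 97 with the replicate block, 4, 23 and 43 with DESeq2, 23, 51 and 85 with DESeq2 and the block, 13, 43 and 67 with replicates 1 and 2 only, 1, 16 and 24 without a filter, and 1, 4 and 9 with at least 10 counts in every library. These fits tested 367 miRNAs, except 380 with replicates 1 and 2 only, 1198 without a filter and 231 with the minimum of 10 counts. The cause of these changes in calls was not tested. Leaving out 1 library gave 0 to 0, 4 to 12 and 6 to 23 calls. It gave log2 changes in the same order of -1.29 to -0.99, 0.15 to 0.40 and 1.21 to 1.58 for miR-224-5p, of -1.50 to -0.94, -0.50 to -0.12 and 0.61 to 1.27 for miR-452-5p, and of -0.27 to 0.17, 0.26 to 0.86 and 0.28 to 0.89 for their log2 ratio, whose sign in the first comparison thus turned. Scaling by total counts moved the median of all tested miRNAs to 0.19 in HCT-FU-c against HCT116 and to -0.26 between the sublines, where calls split 11 higher and 6 lower in place of 13 and 3. Relative to those medians miR-224-5p was at -1.18 and 1.46. In HCT-Oxa-c against the parent calls split 5 higher and 4 lower, 8 and 4 by total counts and 5 and 2 by TMM without miR-21-5p. Depth limits miR-452-5p, with 15 to 78 reads per library, and leaves miR-224-3p untestable.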
